A study of Homo sapiens with 4 samples.

Results

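The genes described here were REST, which encodes the repressor NRSF/REST itself, and 9 genes for proteins that REST works with, RCOR1, RCOR2, RCOR3, SIN3A, SIN3B, HDAC2, KDM1A, EHMT1 and CDYL. They were taken by name, 10 of 20163 protein-coding genes, with earlier results of these data known. Their shares are set beside those of all genes as a description of a chosen set, and enrichment was not tested. A NRSF/REST site was counted for a gene when it overlapped the gene or lay within 10 kb of either end. In the basal SF-1 dosage 6 of 5323 sites met this rule, and in the increased dosage 9 of 5059 sites did.

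The sites came from ChIP-seq, in which DNA bound by a protein is recovered with an antibody, sequenced and searched for regions with many reads. The cells were H295R/TR SF-1, a clone of the H295R human adrenocortical carcinoma line in which doxycycline switches on extra SF-1 (steroidogenic factor 1, a nuclear receptor of the adrenal cortex and gonads). Cells left without doxycycline gave the basal dosage and cells given doxycycline for 3 days gave the increased dosage, and both carried the same inducible SF-1 construct. Each dosage had 1 NRSF/REST library, so a difference between the lists had no replicate check and no test was made of it, and 2 input DNA libraries were not analysed here. As the cells were 1 clone, nothing here measures how other adrenocortical cells vary.

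REST is a zinc-finger protein that binds a long DNA element, RE1, near many neuronal genes and keeps them silent outside neurons. One end of the protein recruits the SIN3 scaffolds with histone deacetylases. The other end recruits CoREST (RCOR1), which brings in the histone demethylase LSD1 (KDM1A) and deacetylases, while the methyltransferases G9a and GLP (EHMT1) and the adaptor CDYL are further partners.

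At the basal dosage 3 of the 10 genes had a site, REST, EHMT1 and CDYL, where 13.9% of all protein-coding genes did. At the increased dosage 6 of the 10 had a site, against 13.6% of all protein-coding genes, the same 3 genes plus SIN3A, HDAC2 and KDM1A. REST, EHMT1 and CDYL thus had sites in both lists (10.5% of all genes), and each had 2 in each list, where 3.21% of all genes had 2 or more at the basal and 3.07% at the increased dosage. With each gene bounded by its canonical transcript and the same 10 kb, REST and EHMT1 kept 1 site each in each list, CDYL kept 2, and the site of HDAC2 was no longer counted. The share of all genes under these narrower bounds is not given here, and the percentages in this paragraph are for whole genes. SIN3A, HDAC2 and KDM1A had a site in the increased list only (3.09% of all genes), and none of the 10 had a site in the basal list only (3.44%). RCOR1, RCOR2, RCOR3 and SIN3B had no site in either list. Of all genes, 17% had one in at least 1 of the lists.

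The share of genes with a site differed with gene length, so the members were also read within length classes. EHMT1, CDYL and RCOR1 were over 100 kb, and 2 of these 3 had a site in each list, where 31.2% of all genes of that length did at the basal and 30.6% at the increased dosage. The same 2 had 2 or more sites, where 11% and 10.2% of such genes did. REST, RCOR3, SIN3A, SIN3B, HDAC2 and KDM1A were 20 to 100 kb, of which 1 had a site at the basal and 4 at the increased dosage, where 11.7% and 11.3% of all such genes did, and 3 of the 6 had one at the increased dosage only, where 3.03% did. RCOR2, at 5.93 kb, was the only member under 20 kb, a class in which 8.57% and 8.39% of genes had a site.

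**Figure D1:**
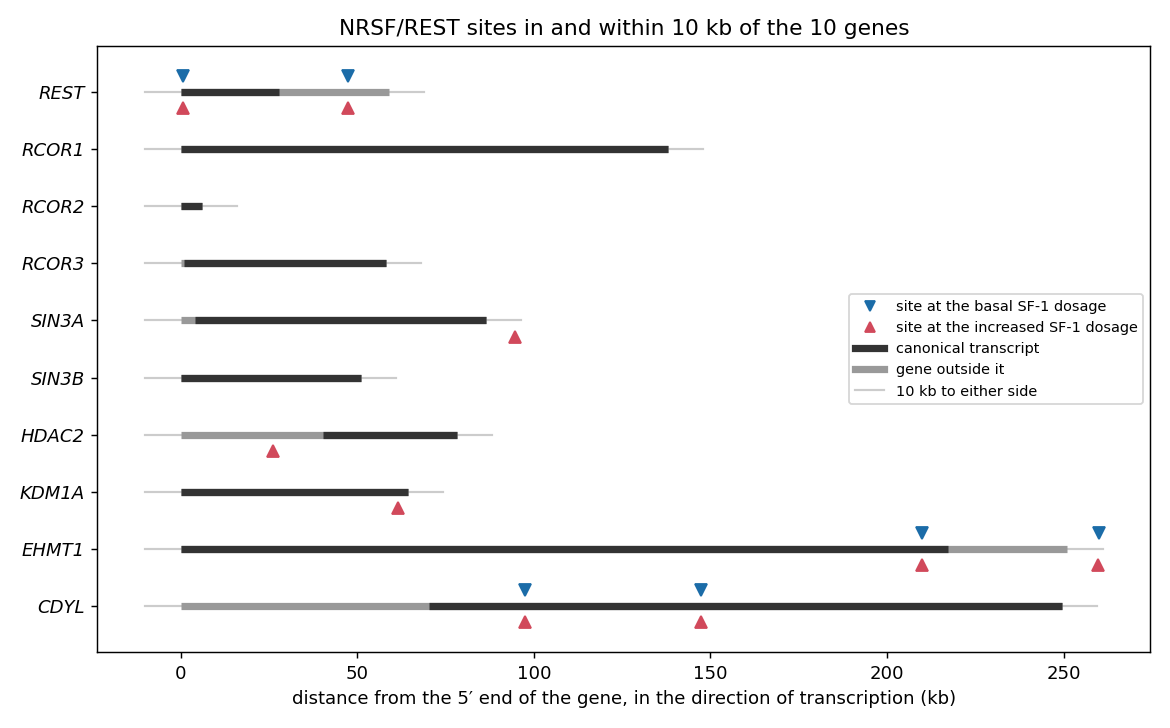
NRSF/REST sites drawn along each of the 10 genes with 10 kb on each side. The horizontal axis is the distance from the gene start in kb along the direction of transcription, and the marks show the sites of the basal and of the increased SF-1 dosage. REST, EHMT1 and CDYL carry 2 sites in each list, SIN3A, HDAC2 and KDM1A carry 1 in the increased list only, and the other 4 genes carry none.

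The REST gene spans chr4:57774042-57832974 on the plus strand of hg19, 58.9 kb as all its transcripts together cover it, while its canonical transcript, REST-201, ends at 57802010 after 27.9 kb. Both of its sites were in both lists. REST site 1 lay at its promoter, and REST site 2 lay far downstream of the canonical transcript.

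REST site 1 covered chr4:57774251-57775149 (899 bp) at the basal dosage and chr4:57774251-57775049 (799 bp) at the increased dosage. It covered the last 129 bp of the non-coding first exon of REST-201 and the start of the first intron, which is 2.42 kb long, and its midpoint was 0.658 kb and 0.608 kb from the gene start. The 2 lists placed its left edge at the same base and its right edge 100 bp apart. The sites were numbered in the deposited lists, low numbers going with wide sites (Spearman's rho of -0.95 between number and width in each list, a description across sites that share one library). REST site 1 had the numbers 1821 of 5323 and 1908 of 5059. Those numbers were late for so wide a site. At the basal dosage 65 sites were 899 bp wide, their median number was 465, and 2 of them, REST site 1 included, had 1821 or a later one. At the increased dosage 110 sites were 799 bp wide, with a median number of 544, and 5 had 1908 or a later one.

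The sequence of REST site 1 differed from that of most sites. Its GC content was 75.5% at the basal and 74.5% at the increased extent, higher than 98.9% and 98.8% of the sites in the respective list, where the medians were 45.5% and 45.2%. It held 105 CG dinucleotides in the basal extent, 11.7 per 100 bp, and 90 in the increased extent, 11.3 per 100 bp. A stretch of 150 bases around its basal midpoint, chr4:57774626-57774775 on the plus strand and inside the first intron, is printed to show this composition, with the CG dinucleotides in capitals.
REST site 1: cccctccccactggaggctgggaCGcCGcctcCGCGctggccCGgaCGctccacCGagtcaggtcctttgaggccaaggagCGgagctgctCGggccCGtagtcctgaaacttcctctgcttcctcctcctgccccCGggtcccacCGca

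The RE1 consensus was searched on both strands as CTGTCC and GGTGCTG with 2 free bases between them, 15 bases of which 13 are fixed, and a match was allowed at most 2 mismatches at the fixed bases. By this rule 40.7% of all basal sites (95% Wilson interval 39.3 to 42) and 42.1% of all increased sites (40.7 to 43.4) held a match, against 1.8% of windows of the same widths 10 kb to either side of them. Intervals here cover counting error only. Among the member sites, 3 of the 6 basal and 3 of the 9 increased ones held a match, and they were the same 3 sites, 1 at REST and 2 at EHMT1.

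REST site 1 held no such match. The nearest sequence in it had 3 mismatches, T2G, T4G and T11G, each giving the base of the consensus, its place in it counted from 1 at its 5′ end, and the base of the site, and it lay 177 bp and 227 bp from the basal and the increased midpoint. Most sites of its width did hold one, 80% of those of 899 bp at the basal dosage and 79.1% of those of 799 bp at the increased dosage. Among sites at least 600 bp wide with a GC content of at least 70% the share was lower, 58.9% of 56 basal sites (45.9 to 70.8) and 52.9% of 51 increased sites (39.5 to 65.9), against 82.1% and 81.7% of the equally wide sites with less GC. EHMT1 site 2, described below, was also rich in GC, with 69.3% at the basal and 72.1% at the increased extent. That was higher than 96.3% and 98.3% of the sites, and EHMT1 site 2 held the consensus without a mismatch.

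REST site 2 covered chr4:57821251-57821699 (449 bp, number 1741) at the basal dosage and chr4:57821251-57821649 (399 bp, number 1785) at the increased dosage. It lay 47.4 kb from the gene start and 19.5 kb and 19.4 kb past the end of REST-201. Only 2 of the 12 annotated transcripts, REST-208 and REST-209, reached over it, and in both it fell in the last intron, of 55.1 kb and 46.8 kb. The nearest start of another coding gene was that of NOA1, a mitochondrial GTPase gene, 22.3 kb away. REST site 2 was therefore counted for REST through these long transcripts, and it lay outside the canonical gene with 10 kb on each side.

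Unlike the promoter site, REST site 2 held a match to the consensus, with 2 mismatches, G12A and G15T. The match was 39 bp from the basal and 14 bp from the increased midpoint, and the GC content of the site was 41.9% and 42.6%. The bases chr4:57821376-57821496 on the plus strand are printed to show the match in its surroundings, with the fixed consensus positions in capitals.
REST site 2: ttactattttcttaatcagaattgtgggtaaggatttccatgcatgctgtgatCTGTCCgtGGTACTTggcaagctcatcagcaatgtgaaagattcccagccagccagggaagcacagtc

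REST with its flanks contained 1 further match with 2 mismatches, T11A and C13G, within the bases chr4:57832828-57832848 of the plus strand, and it was in no site of either list. It is printed for comparison with the match in REST site 2.
REST match in no site: tgccCTGTCCaaGGAGGTGat

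SIN3A, SIN3B and HDAC2 had no site at the basal dosage. SIN3A and SIN3B are scaffolds that hold deacetylases to repressors, and HDAC2 is one of those deacetylases. SIN3A and HDAC2 each had 1 site in the increased list, both 149 bp wide and late in it, and SIN3B had none.

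The SIN3A gene spans chr15:75661720-75748183 on the minus strand, and its site, chr15:75653551-75653699, had number 4093 of 5059. It lay 8.1 kb past the end of SIN3A and inside MAN2C1, which encodes a cytosolic alpha-mannosidase, where it covered 73 bp of coding exon 11 of 26 and part of the next intron. The nearest start of a coding gene was that of MAN2C1, 7.31 kb away. The nearest basal site was 366 kb away, and no sequence in the site came within 3 mismatches of the consensus.

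The HDAC2 gene spans chr6:114254192-114332472 on the minus strand, 78.3 kb, of which the canonical transcript covers 38.1 kb. The site at chr6:114306251-114306399 had number 4394 of 5059 and lay 14 kb upstream of the canonical start. Of 17 HDAC2 transcripts only HDAC2-213 reached over it, with a first intron of 48.7 kb, and it also fell in the first intron of the antisense gene HDAC2-AS2. The nearest basal site was 174 kb away. It held no match within 3 mismatches, but it held the 2 parts of the consensus 6 bases apart instead of 2, CTGCCC and AGTGCTG, each with at most 1 mismatch. Of all sites without the consensus, 24.8% at the basal and 24.1% at the increased dosage held both parts at another distance, and of those at most 249 bp wide, the width of the widest member site found in 1 list only, 12.5% and 11.7% did. Other member sites held both parts as well. CDYL site 2, which lacked the consensus too, had them 7 bases apart in each list. REST site 2 (16 bases), EHMT1 site 1 (14) and EHMT1 site 2 (20 and 10) had them besides their matches. The share among sites that hold the consensus is not given here, so these last cases have no background. The whole HDAC2 site, 149 bases on the plus strand, is printed with both parts in capitals.
HDAC2 site 1: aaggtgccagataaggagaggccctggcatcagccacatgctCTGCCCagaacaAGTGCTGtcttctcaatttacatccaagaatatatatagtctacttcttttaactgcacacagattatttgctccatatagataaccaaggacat

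SIN3B, at chr19:16940209-16991164 on the plus strand, had no site, and its sequence with the flanks held 10 matches with at most 2 mismatches. 1 of the 10 had 1 mismatch, C1T, and lay in intron 11 of 18. It is printed since it was the closest match at a member gene that no list held.
SIN3B match in no site: tggcTTGTCCctGGTGCTGac

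The printed bases are chr19:16977146-16977166 on the plus strand. The nearest site of either list was 70 kb from SIN3B. In the genome as a whole 12% of the 8057 matches with 1 mismatch were in a basal site and 11.9% in an increased site. Of the matches with 2 mismatches 0.887% and 0.85% were.

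Of KDM1A, RCOR1, RCOR2 and RCOR3, only KDM1A had a site. HDAC2, described above beside SIN3A, is also a member of CoREST complexes. KDM1A, the LSD1 demethylase, spans chr1:23345936-23410182 on the plus strand, and its site, chr1:23407401-23407649, was 249 bp wide with number 3082 of the increased list. It lay 61.6 kb from the gene start and 2.66 kb before the gene end, in intron 18 of 20 of the canonical transcript, an intron of 1.78 kb, and 3 of 36 transcripts had it in an exon. An antisense non-coding gene, ENSG00000240553, also had an intron there. The nearest basal site was 455 kb away, and the site held no match within 3 mismatches.

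RCOR1, the CoREST scaffold, and its paralogues RCOR2 and RCOR3 had no site within 10 kb. RCOR1 (chr14:103058986-103196898) was 397 kb from the nearest basal and 216 kb from the nearest increased site. RCOR3 (chr1:211431719-211489727) was 104 kb from the nearest site in each list. RCOR2 (chr11:63678702-63684636) was the closest, 18.8 kb from a basal site of 99 bp and 18.7 kb from an increased site of 249 bp. RCOR1 and its flanks held 6 matches with 2 mismatches, RCOR2 and RCOR3 held 0 each, and none of the 6 was in a site.

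The histone methyltransferase gene EHMT1 and CDYL, whose chromodomain protein joins REST to such methyltransferases, each had 2 sites in each list. EHMT1 spans chr9:140513444-140764468 on the plus strand, 251 kb. Its sites were the lowest in number, meaning nearest the top of the lists, of all member sites.

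EHMT1 site 1 covered chr9:140723001-140723699 (699 bp, number 774) at the basal dosage and chr9:140723001-140723649 (649 bp, number 819) at the increased dosage. It lay in intron 25 of 26, an intron of 16.2 kb, 210 kb from the gene start. Its match had 1 mismatch, G3C, on the minus strand, 53 bp and 28 bp from the midpoints. EHMT1 site 2 covered chr9:140772851-140773949 (1099 bp, number 118) and chr9:140772701-140773849 (1149 bp, number 122). It was the widest member site. It lay 8.93 kb and 8.81 kb past the end of EHMT1, 42.8 kb and 42.7 kb past the end of its canonical transcript, and inside CACNA1B, the gene of the pore subunit of a neuronal calcium channel, whose start was 1.01 kb and 0.889 kb away and whose second exon it covered whole. It held the consensus without a mismatch, 150 bp from the basal and 25 bp from the increased midpoint.

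The bases around the match of EHMT1 site 1 are those of chr9:140723237-140723357 on the minus strand, and the match of EHMT1 site 2, chr9:140773243-140773257, is printed within the bases chr9:140773239-140773259 of the plus strand. Both are printed, fixed positions in capitals, to set the 2 best matches at the member genes side by side.
EHMT1 site 1: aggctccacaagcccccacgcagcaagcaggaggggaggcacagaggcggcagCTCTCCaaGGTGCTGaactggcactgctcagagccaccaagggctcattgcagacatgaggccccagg
EHMT1 site 2: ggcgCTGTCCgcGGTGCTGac

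CDYL spans chr6:4706393-4955785 on the plus strand, 249 kb, and both of its sites fell in the first intron of the canonical transcript, which is 115 kb long. CDYL site 1 covered chr6:4803801-4803999 (199 bp, number 4090) at the basal dosage and chr6:4803751-4803949 (199 bp, number 3966) at the increased dosage, 27.3 kb and 27.2 kb from the canonical start. CDYL site 2 covered chr6:4853551-4853949 (399 bp, number 2782) and chr6:4853751-4853949 (199 bp, number 3227), 77.1 kb and 77.2 kb from the canonical start and 17.4 kb and 17.5 kb from the start of the shorter transcript CDYL-205. Neither held the consensus with at most 2 mismatches. CDYL site 1 had none within 3, and CDYL site 2 had one with 3 on the minus strand, G3A, G12A and G15A.

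The bases around this sequence in CDYL site 2, chr6:4853715-4853835 on the minus strand, are printed to show how far it departs from the consensus. Those that CDYL site 1 had in both lists, chr6:4803801-4803949 on the minus strand, are printed with a different motif in capitals, CAAGGTCA, a binding sequence of SF-1.
CDYL site 2: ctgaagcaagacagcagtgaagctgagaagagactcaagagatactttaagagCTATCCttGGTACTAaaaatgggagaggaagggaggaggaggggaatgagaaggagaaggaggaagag
CDYL site 1: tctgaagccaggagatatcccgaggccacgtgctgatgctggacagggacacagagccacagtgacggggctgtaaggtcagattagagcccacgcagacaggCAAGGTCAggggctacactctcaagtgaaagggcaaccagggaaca

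The SF-1 motif was searched on both strands, without mismatch, as CAAGG followed by T, A or C and then CA. CDYL site 1 held one in both lists and HDAC2 site 1 held one, so 1 of 6 member sites had it at the basal and 2 of 9 at the increased dosage, where 11.4% and 11.5% of all sites did.

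**Figure D2:**
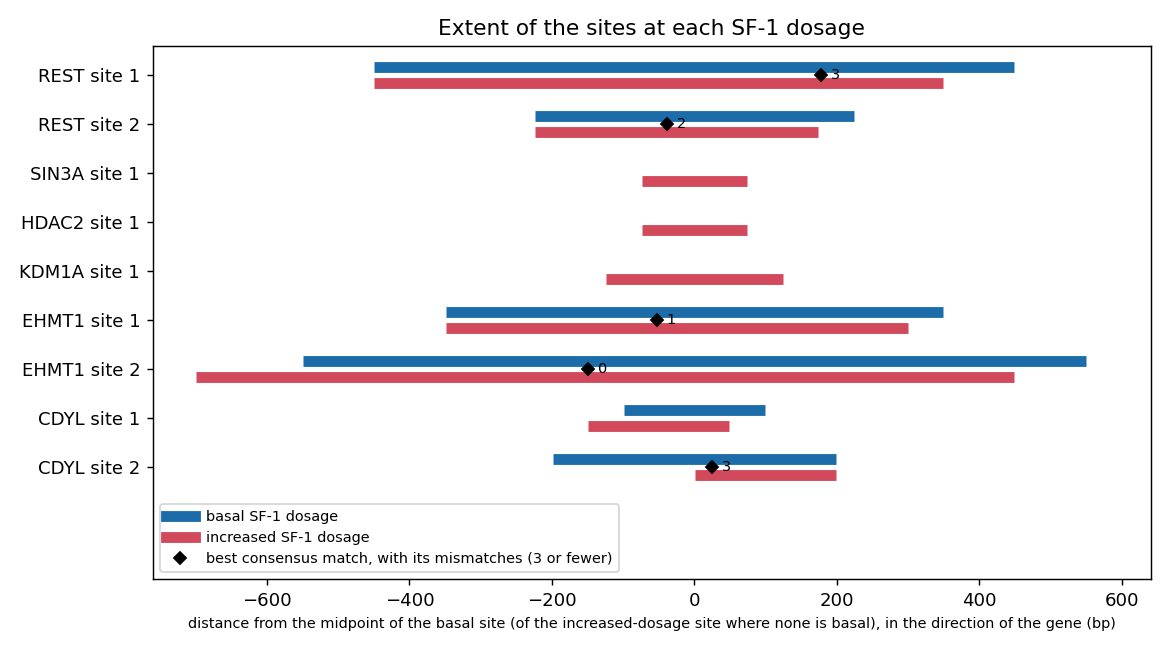
Extents of the member sites at the basal and the increased SF-1 dosage, aligned on the midpoint of the basal site, or of the increased site where there was no basal one. The horizontal axis is the distance from that midpoint in bp in the direction of the gene, bars are site extents and marks are the nearest sequences to the consensus. EHMT1 site 1, EHMT1 site 2 and REST site 2 are the 3 with at most 2 mismatches, and CDYL site 2 shrinks from 399 bp to 199 bp.

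Between the dosages, the 6 sites that REST, EHMT1 and CDYL had in the basal list all overlapped a site of the increased list, where 64.5% of all basal sites and 67.9% of all increased sites overlapped a site of the other list. In the increased list they were 6 of 9 member sites. Of all basal sites 199 bp wide, as CDYL site 1 was, 37.1% were shared. At the basal widths of the other 5 sites, 399 to 1099 bp, between 96.9% and 100% were. The overlap made up 88.9% of the combined extent for each REST site, 92.8% for EHMT1 site 1, 80% for EHMT1 site 2, 59.8% for CDYL site 1 and 49.9% for CDYL site 2. Over all 3327 pairs that matched one to one the median was 85.7% and the 5th percentile 56.3%. CDYL site 2 lay under that percentile, and the other 5 lay above it. It was also the site whose width moved most, by 200 bp, and whose place in the list moved most, from 52.3% to 63.8% of the way down. The other 5 shared sites also stood further down the increased list, by 0.195 to 3.5 percentage points. Over all pairs the median move was 1.02 points further down, and the 95th percentile, 14.4, was beyond the 11.5 of CDYL site 2.

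**Figure D3:**
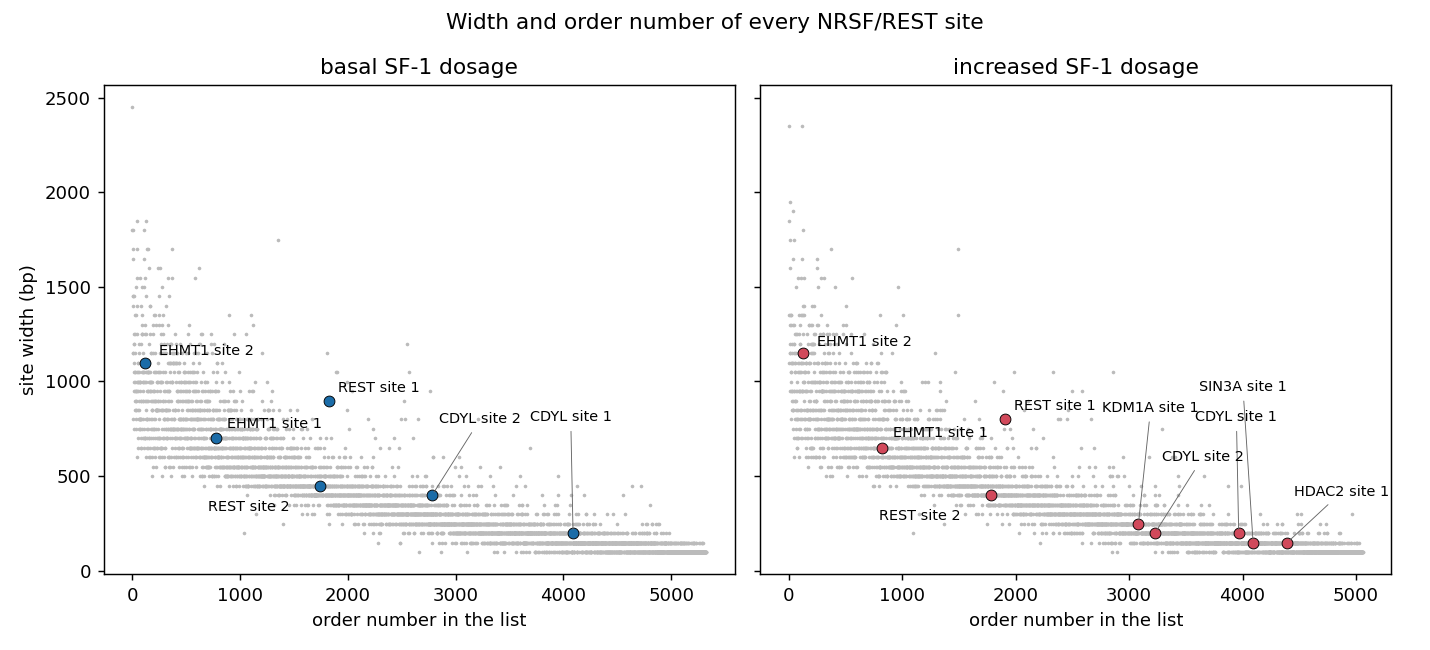
Width of every NRSF/REST site in bp against its number in the list, with the basal SF-1 dosage on the left and the increased dosage on the right. Grey points are all sites and coloured points the member sites. REST site 1, 899 bp with number 1821 and 799 bp with number 1908, stands above most sites of similar number, and the sites of SIN3A and HDAC2 lie in the narrow late end of the increased list.

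The 3 sites found only at the increased dosage were 149 bp wide at SIN3A and HDAC2 and 249 bp wide at KDM1A. How often a site was shared differed between these widths. The median width of the member sites was 574 bp at the basal and 249 bp at the increased dosage, and that of all sites was 299 bp in each list. Of the 720 increased sites that were 149 bp wide, as those of SIN3A and HDAC2 were, 20.6% overlapped a basal site (17.8 to 23.7) and 9.17% held the consensus (7.27 to 11.5). Of the 378 that were 249 bp wide, as that of KDM1A was, 71.2% overlapped a basal site (66.4 to 75.5) and 29.6% held the consensus (25.2 to 34.4). In the increased list 1623 sites overlapped no basal site, and 6.78% of them held the consensus (5.65 to 8.11), where 58.8% of the shared ones did (57.1 to 60.4). At the other end, all sites of 899 bp in the basal list and of 799 bp in the increased list, the widths of REST site 1, were shared. When only the wider or only the earlier 50% of the increased list was kept and set against the whole basal list, 0 members had a site at the increased dosage only. The share of all genes under that rule is not given here.

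**Figure D4:**
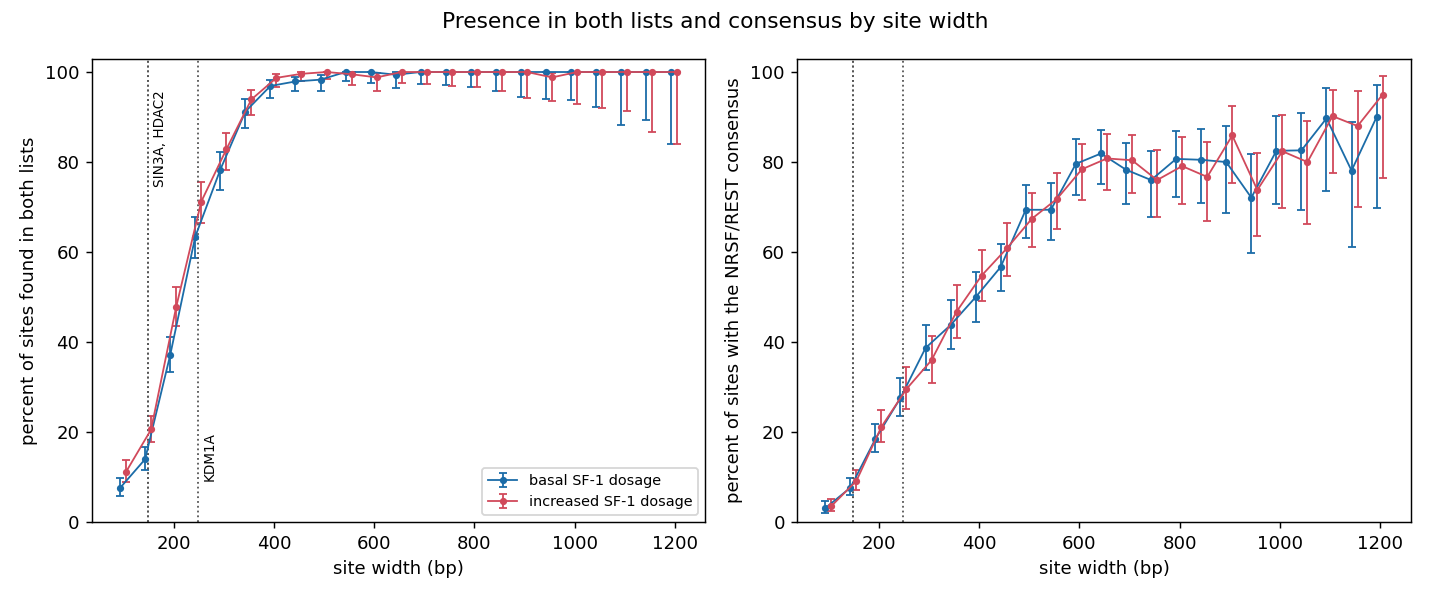
Share of sites that overlap a site of the other list and share that hold the consensus with at most 2 mismatches, in percent, by site width in bp, for the basal and the increased SF-1 dosage. Error bars are 95% Wilson intervals and dotted lines mark the widths of the sites of SIN3A, HDAC2 and KDM1A. Both shares are lower for narrow than for wide sites, going from 20.6% shared and 9.17% with the consensus at 149 bp in the increased list to 100% and 79.1% at 799 bp.

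Most matches to the consensus at the member genes were in no site. The 10 genes with their flanks held 67 matches with at most 2 mismatches, 1 without mismatch, 2 with 1 and 64 with 2. The match without mismatch was in a site, as were 1 of the 2 with 1 mismatch and 1 of the 64 with 2. EHMT1 had 28 of the 67, CDYL 16, SIN3B 10, RCOR1 6, SIN3A 3, REST and KDM1A 2 each, and RCOR2, RCOR3 and HDAC2 0. Several of those of EHMT1 lay close together on the plus strand, within chr9:140617567-140617840, and each was counted. In the whole genome 74.5% of 816 matches without mismatch were in a basal site and 74.8% in an increased site, while of 87405 matches with 2 mismatches 0.887% and 0.85% were.

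A further list, called cofactor genes here, held 28 genes for REST cofactors and for the turnover of REST. Among them were deacetylase, CoREST, SIN3, BRG1, Polycomb and phosphatase partners, with USP7 and BTRC for turnover. Of the 28, 6 had a site at the basal and 7 at the increased dosage, and 4 had one in both lists, HDAC3, SMARCE1, USP7 and GSE1. The shares were 21.4%, 25% and 14.3%, beside 13.9%, 13.6% and 10.5% of all protein-coding genes. These shares were not matched for gene length, and the 28 genes ranged from 6.31 kb to 507 kb. Of all genes over 100 kb, 31.2% had a basal and 30.6% an increased site, and of those under 20 kb 8.57% and 8.39% did. Of the rest, SMARCC1, EZH2 and SUDS3 had a site at the increased dosage only, 10.7% of the 28 beside 3.09% of all genes. CTBP2 and SUZ12 had one at the basal dosage only, 7.14% beside 3.44%. These genes are named here after their values were seen. The other 19 of the 28, 67.9%, had none, where 17% of all genes had one in at least 1 list. Gene length was not matched in these shares either. Of the 4, USP7, which encodes a deubiquitinase that stabilizes REST, had the widest site, in intron 1 of 30, at chr16:9025151-9026199 (1049 bp, number 300) and chr16:9025551-9026249 (699 bp, number 316). It held the consensus without mismatch within the bases chr16:9025888-9025908 of the minus strand, printed to compare with that of EHMT1 site 2.
USP7 site: ggcaCTGTCCgtGGTGCTGaa

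HDAC3, a deacetylase of other corepressor complexes, had a site of 449 bp and 399 bp 1.21 kb and 1.18 kb upstream of its start, inside the neighbouring gene RELL2. SMARCE1, a subunit of the BRG1 remodelling complex, had one of 249 bp and 299 bp 4.79 kb and 4.81 kb past its end. GSE1, found in a CoREST-type complex, had one of 349 bp and 299 bp 182 kb from its start. The GSE1 site lay outside the canonical transcript, and only 1 of 16 GSE1 transcripts reached over it. It also fell in the intron of an antisense non-coding gene, ENSG00000287946.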

How the data were processed

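NRSF/REST ChIP-seq sites of the basal and the increased SF-1 dosage were used as the authors deposited them, 1 list per dosage. Each site has hg19 coordinates, a running number and a score. The deposited score, 1000 throughout, was not used. What the running number ranks by is not given in the sources used here. The submitters' processing notes name CASAVA 1.6 and hg19, and peak-calling settings for NRSF/REST are not given in the sources used here. Read counts were not in the lists, so depth is unknown, and what each library could detect is unknown. The 2 input libraries have no dosage in the labels and were not used.

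Sites were assigned to genes of GENCODE release 44 on GRCh37 (gene ends over all transcripts, 10 kb flanks), and any shared base counted as overlap. Sequences were read from GRCh37. Consensus searches, overlaps and intervals were made in Python 3.11.15, numpy 2.4.6, scipy 1.17.1 and matplotlib 3.10.9. As a check of the code, 5323 of 5323 windows placed on the basal sites and 200 of 200 motifs planted in simulated sequences in each search were found. This check does not measure false matches or missed sites. All member sites were described, and other genes were named if they were listed cofactors with a site in both lists or held or neighboured a member site. The members, the cofactor list and the motifs were chosen with earlier results of these data known. Alternatives were other flanks, canonical gene bounds, other mismatch limits, stricter overlap, and the wider or earlier 50% of a list.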

Additional observations from a re-analysis of the deposited data

How the results depend on the processing

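Of 51 recomputed values for 11 results, 37 stayed within 1.5 times. With 50 kb flanks the basal member sites came to 10, at 4 member genes, where 25.9% of all genes had a basal site. Without a mismatch 1 member site held the consensus in each list, where 11.2% of all basal and 11.8% of all increased sites did. With at most 3 mismatches 5 member sites did in each list, where 52.5% and 53.2% of all sites did. At that limit 13.4% and 13.8% of the windows 10 kb to either side held a match too. In the widest 50% of the increased list, and likewise in its first 50% by number, 2 member genes and 4 member sites were left. The share of all genes with a site in these parts of the list is not given here, so these counts have no background. The next alternatives were chosen after the data were seen. The cofactor genes with a site came to 11 in each list with 50 kb flanks, where 25.9% of all genes had a basal and 25.3% an increased site, and to 4 at the increased dosage in the gene body alone, where 9.74% did. The member genes with a site only at the increased dosage fell to 0 when either 50% of the increased list was set against the whole basal list. No paired analysis was possible because each dosage had 1 library, and for the same reason no replicate could be left out. Depth is unknown, so a site absent from a list may have been missed there.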
